A study of Mus musculus with 6 samples.

Results

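The genes described here encode the ligands and receptors of 3 families of guidance signals: the ephrins and their Eph receptors, the Slit proteins and their Robo receptors, and the secreted netrins with their Unc5 receptors. They were taken from the deposited table by symbol (Epha, Ephb, Efna, Efnb, Slit, Robo, Ntn and Unc5 followed by their number or letter), which gave 36 of the 46983 genes listed. RNA had been sequenced from whole hearts of mouse embryos at E13.5, 1 heart per library, on a C57BL/6 x DBA/2 background. The 3 mutant hearts (replicates 1, 5 and 10) carried the Tnnt2 Cre transgene and loxP-flanked (floxed) alleles of Wt1. The other 3 hearts (replicates 2, 3 and 5) are called wild type in the labels. By the study's methods they came from control embryos that lacked Cre but were homozygous for the floxed allele, so both groups shared that allele and the Cre transgene set them apart. The Tnnt2 promoter drives Cre in cardiomyocytes from early stages, and the study's methods and text state that part of the epicardial lineage is recombined too, so the loss of WT1, a zinc finger transcription factor, is not restricted to the myocardium. The comparison asks which transcripts differ in the whole heart when Wt1 is deleted by this driver.

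Ephrins and Eph receptors signal between touching cells. Ephrin-A ligands are held to the membrane by a lipid anchor, ephrin-B ligands span it, and both the receptor cell and the ligand cell can respond, mostly by repulsion and by sorting of cell populations. Slits are secreted and repel or steer cells that carry Robo receptors. Netrins attract through Dcc and neogenin and repel through Unc5 receptors. In the developing heart and vessels these families are known from the boundary between arterial and venous endothelium (ephrin-B2 and EphB4), from the cushions and septa (EphA3, Slit and Robo genes) and from endothelial sprouting (Robo4 and Unc5b).

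The libraries held between 44244665 and 56373393 counts. Wt1 itself lay at 40.0, 32.9 and 19.97 CPM (counts scaled by library size with TMM factors) in wild type replicates 2, 3 and 5, and at 17.7, 33.3 and 35.7 in mutant replicates 1, 5 and 10. The groups overlapped (log2 fold change -0.10 ± 0.31, SE), and a count over the whole gene does not show which exons were read, so it does not check the deletion. The cardiomyocyte markers were present in every heart, with a mean of 3257 FPKM for Tnnt2. Wild type replicate 5 stood apart with gene length: the rank correlation across 11819 genes between a gene's length and its deviation in that heart was -0.556, against -0.0623 to 0.463 in the other hearts (genes are not independent, and no p is given). Summed erythroid markers were 36880 CPM in wild type replicate 5 and 38770 CPM in mutant replicate 10, against 11440 to 14360 CPM in the other 4 hearts. Macrophage markers summed to 67.1 to 80.5 CPM in wild type hearts and 106 to 118 CPM in mutant hearts, with 5 of 6 markers higher. Sinus venosus markers summed to 138 to 169 CPM for wild type and 124 to 131 CPM in mutant hearts, with 4 of 5 lower. Fibroblast and mesenchyme markers summed to 2197 to 3135 CPM in wild type and 3151 to 4454 CPM in mutant hearts, with 5 of 7 higher. None of the markers of these 4 lists was at 0 in a heart. Liver markers summed to 739 CPM in wild type replicate 3 and to 0.801 to 19.6 CPM in the other 5 hearts. Lung and foregut markers summed to 14.5 CPM in wild type replicate 5 and 13.2 CPM in mutant replicate 5, against 0.941 to 3.13 CPM elsewhere, and 3 of these 6 markers and 1 of the 4 liver markers (Alb) were at 0 in at least 1 heart. The part of these differences in the values below was not tested. In whole hearts, fewer cells of a type and less RNA per cell cannot be told apart.

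Most guidance genes were transcribed in the E13.5 heart. Of the 36 genes, 13 had a mean of 10 FPKM or more over the 6 hearts (fragments scaled by gene length and by the total of the heart), 13 lay between 1 and 10 FPKM, and 10 lay under 1 FPKM, while 26 were above 1 FPKM in every heart. The median of all 17473 genes that passed the filter on low counts was 8.04 FPKM. The 5 genes that did not pass it were Epha6, Epha8, Epha10, Slit1 and Ntn5. Slit1 had 6 to 15 counts per heart, and none of the other 4 had more than 7 counts in any heart, so differences in them were not detectable at this depth.

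Among the ligands, Ntn1 and Efnb3 had the highest levels. Ntn1, the netrin that binds Dcc, neogenin and Unc5 receptors, had a mean of 63.7 ± 15.6 FPKM (SD, n = 6 hearts) and made up 90.7% of the FPKM of its class. Ntn4, a netrin of basement membranes, followed at 6.54 ± 1.26 FPKM. Efnb3 was the highest ephrin gene at 60.3 ± 7.79 FPKM, and it was above the other ephrin-B genes in every heart. Efnb1 (37.1 ± 5.26 FPKM) and Efnb2 (36.0 ± 4.81 FPKM), the latter a marker of arterial endothelium, were not ordered, since Efnb1 was the higher of both in 3 of 6 hearts. Of the ephrin-A genes, Efna1, a ligand known from vascular endothelium, had 23.3 ± 3.02 FPKM and was highest in every heart. Efna5 (10.3 ± 1.37 FPKM) and Efna2 (9.99 ± 0.596 FPKM) lay close together, with Efna5 higher in 5 of 6 hearts, Efna4 followed at 7.57 ± 0.927 FPKM, and Efna3 was lowest at 0.938 ± 0.461 FPKM. Slit2 (46.9 ± 10.9 FPKM) was above Slit3 (20.96 ± 7.21 FPKM) in each of the 6 hearts, and Slit1 reached 0.0523 ± 0.0265 FPKM. The first and second ranked Slit genes differed within every heart, although their ranges over hearts overlapped.

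Among the receptors, each class was led by 1 gene. Ephb4, the receptor of venous endothelium that binds ephrin-B2, had 44.2 ± 4.92 FPKM, or 57.3% of the FPKM of the EphB class. Ephb3 followed at 21.7 ± 2.70 FPKM, and Ephb6 (a receptor with an inactive kinase) and Ephb2 at 5.65 ± 1.11 and 5.10 ± 1.61 FPKM were not separated beyond their spread. Ephb1 was lowest at 0.525 ± 0.181 FPKM. The EphA class was led by Epha7 (25.4 ± 5.29 FPKM), then Epha2 (15.5 ± 3.19 FPKM), a receptor of ephrin-A1 that is best known in epithelia. Epha4, Epha3 and Epha1 lay at 6.68, 4.90 and 3.35 FPKM and kept this order within every heart, and Epha5 had a mean of 0.211 FPKM. Robo1, the widely expressed Slit receptor, had 8.17 ± 1.58 FPKM, Robo2 4.61 ± 1.58 FPKM and the endothelial receptor Robo4 2.17 ± 0.342 FPKM, again in this order in each heart. Robo3, known from commissural neurons, was near the limit of detection at 0.0838 ± 0.0778 FPKM. Unc5b, a receptor of arterial endothelium, made up 76.4% of the FPKM of the Unc5 class at 34.2 ± 4.40 FPKM. Unc5c (6.40 ± 1.91 FPKM) was above Unc5a (4.04 ± 0.438 FPKM) in 5 of 6 hearts, and Unc5d had 0.0921 ± 0.0312 FPKM. Summed over the class, ephrin-B genes had 115 to 161.5 FPKM and EphB genes 63.4 to 87.1 FPKM, with the ligands higher in 6 of 6 hearts. Ephrin-A genes had 49.5 to 57.0 FPKM and EphA genes 42.0 to 64.0 FPKM, with the receptors higher in 4 of 6 hearts and overlapping ranges.

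**Figure D1:**
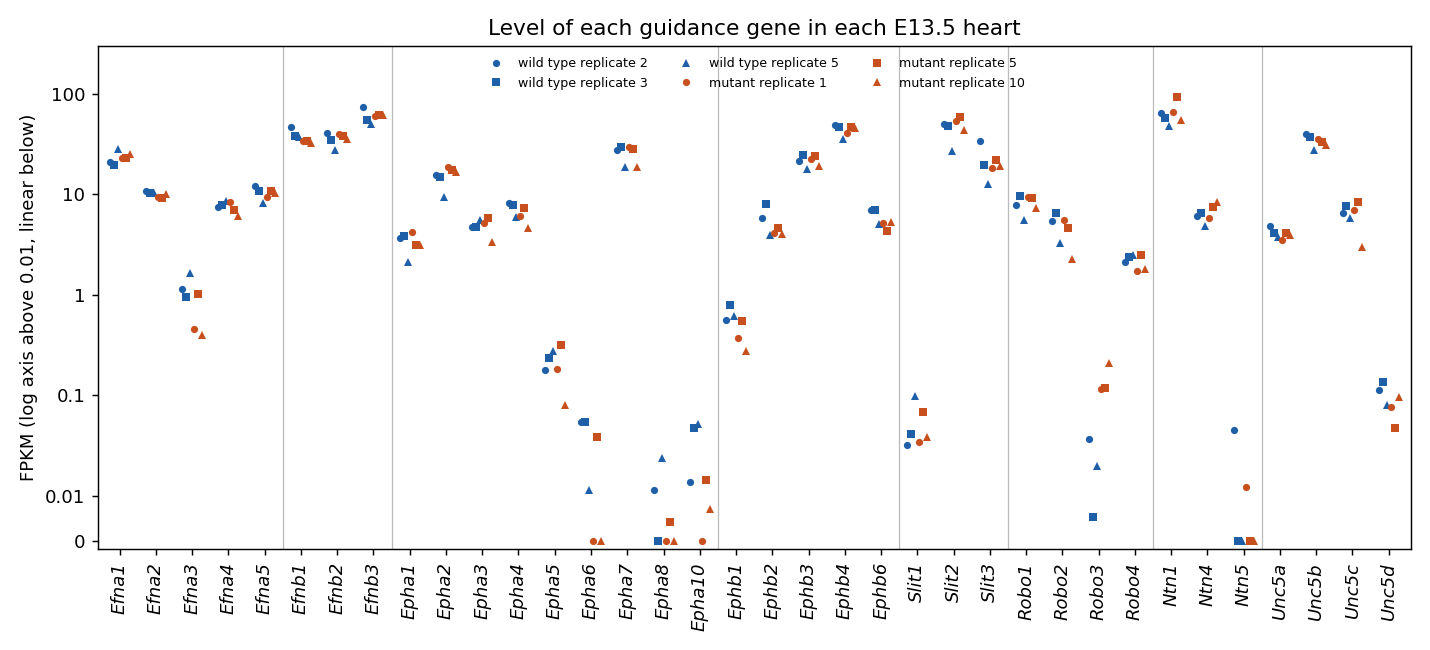
Deposited FPKM of the 36 guidance genes (x axis, grouped by class) in each of the 6 hearts, on an axis that is logarithmic above 0.01 FPKM and linear below it. Blue points are wild type and orange points mutant hearts, with 1 symbol per replicate. Ntn1, Efnb3, Slit2 and Ephb4 lie highest, 10 genes have a mean under 1 FPKM, and for Robo3 all mutant points lie above all wild type points, at 0.209 FPKM or less.

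No guidance gene passed the threshold between the genotypes. In edgeR's quasi-likelihood test 0 of the 31 genes tested had a Benjamini-Hochberg adjusted p under 0.05, as did 0 of all 17473 genes (0%), and the smallest adjusted p among the 31 was 0.3996 (Robo3). DESeq2 gave an adjusted p under 0.05 to 0 of 32 guidance genes, beside 132 of 19493 genes in all (0.677%), and an unadjusted p under 0.05 to 4 guidance genes, beside 4.32% of all genes. At an unadjusted p under 0.05 in edgeR there were 4 of 31 guidance genes (12.9%), beside 5.73% of all genes tested. Robo3 and Epha2 were higher in the mutant hearts (3.14% of all genes), and Ephb1 and Efna3 were lower (2.59% of all genes). The groups did not overlap for 4 genes (12.9%, beside 11.2% of all genes). These were Robo3 and Epha2 with every mutant heart higher (6.61% of all genes) and Ephb1 and Efnb1 with every mutant heart lower (4.59% of all genes). Robo3 passed the filter through the mutant hearts alone, so that its difference was favoured by the filter. Among the other 30 genes, 3 had an unadjusted p under 0.05 and 3 did not overlap.

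The estimates lay on both sides of 0, with 14 genes higher and 17 lower in the mutant. Their median log2 fold change was -0.04, against 0.00 for all genes tested, and the median of the absolute log2 fold changes was 0.19 against 0.13. The guidance genes also varied more between hearts of a genotype, with a median SD of 0.27 on the log2 CPM scale against 0.22 for all genes. The 95% confidence interval of the difference stayed within 2-fold in either direction for 25 of the 31 genes, and within 1.41-fold for 12 of them. The 6 genes with wider intervals were Efna3, Epha5, Ephb1, Robo2, Robo3 and Unc5d.

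**Figure D2:**
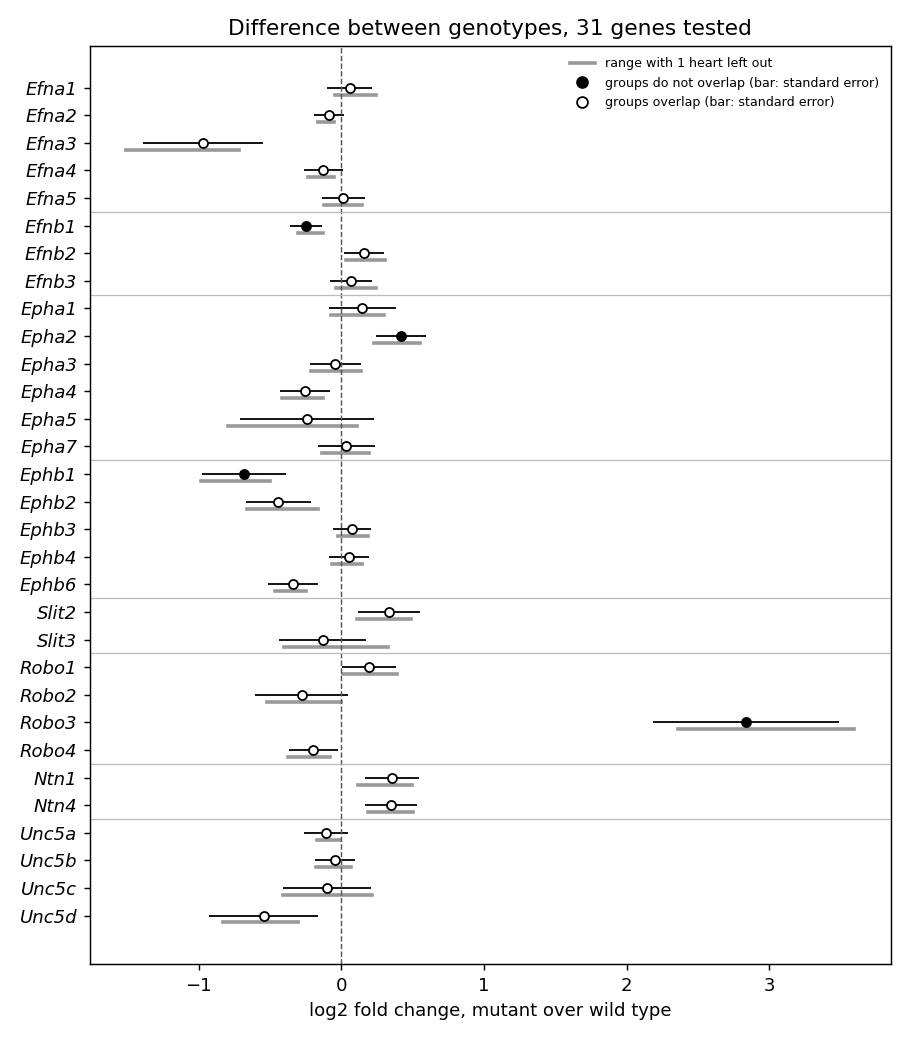
Log2 fold change (mutant over wild type, x axis) of the 31 guidance genes tested, with the edgeR standard error as a black bar and the range of the estimate with each heart left out in turn as a grey bar. Filled points mark the 4 genes whose groups do not overlap. Robo3 lies at 2.84 and the other 30 genes lie between -0.97 and 0.42.

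Robo3 (ENSMUSG00000032128, GRCm38 chr9:37415669-37433246, minus strand) had the smallest p of the set. Wild type replicates 2, 3 and 5 held 7, 1 and 3 counts of it, and mutant replicates 1, 5 and 10 held 20, 21 and 38. All mutant hearts were above all wild type hearts, and mutant replicate 10 was highest. The log2 fold change was 2.84 ± 0.65 (SE, edgeR adjusted p = 0.3996), and it stayed between 2.36 and 3.59 when each heart was left out. DESeq2 gave it an adjusted p of 0.0539, and no setting placed it under 0.05 (adjusted p 0.0539 to 1). Since the filter admitted Robo3 through the group in which it is high, these values are a description. Its neighbour Robo4 (chr9:37401897-37415115, plus strand) ends 553 bp from Robo3 with no shared exon bases. Robo4 lay at 8.91 ± 0.782 CPM for wild type and 7.78 ± 1.54 CPM in mutant hearts (SD, n = 3), with overlapping groups. Summed neural and neural crest markers were 26.4 to 31.9 CPM for wild type and 24.4 to 29.7 CPM in mutant hearts, with 2 of 10 markers higher and 1 (Foxd3) at 0 in at least 1 heart. Among them Prph, which encodes peripherin of peripheral neurons, was counted 35, 55 and 39 times in the wild type hearts and 78, 128 and 141 times in the mutant ones, highest in mutant replicate 10 as Robo3 was (Prph edgeR adjusted p = 0.385, DESeq2 adjusted p = 0.0123). Prph was chosen after its values were seen, and 8 of the 10 markers were lower in the mutant. The sum of the 10 markers was lowest in mutant replicate 10, at 24.4 CPM against 26.4 to 31.9 CPM in the other hearts. The part of these markers in the Robo3 values was not tested.

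Epha2 (ENSMUSG00000006445, chr4:141301240-141329384, plus strand) lay at 23.0, 21.7 and 14.2 CPM in wild type replicates 2, 3 and 5 and at 27.1, 25.6 and 25.9 CPM in mutant replicates 1, 5 and 10. The mutant hearts were close together and above every wild type heart, of which replicate 5 was lowest by far. The log2 fold change was 0.42 ± 0.18 (SE, edgeR adjusted p = 0.857, and 0.340 to 1 over the other settings). Without wild type replicate 5 it was 0.23.

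Ephb1 (ENSMUSG00000032537, chr9:101922128-102354693, minus strand), a receptor of ephrin-B ligands, lay at 2.24, 3.15 and 2.499 CPM in wild type replicates 2, 3 and 5 and at 1.48, 2.23 and 1.19 CPM in mutant replicates 1, 5 and 10. Its groups did not overlap by a margin of 0.01 CPM or less, since mutant replicate 5 nearly reached wild type replicate 2. The log2 fold change was -0.68 ± 0.29 (SE, edgeR adjusted p = 0.867, and 0.283 to 1 over the other settings).

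Efna3 (ENSMUSG00000028039, chr3:89313899-89322965, minus strand) lay at 1.35, 1.11 and 1.95 CPM in wild type replicates 2, 3 and 5 and at 0.539, 1.20 and 0.497 CPM in mutant replicates 1, 5 and 10. Mutant replicates 1 and 10 were below every wild type heart, and mutant replicate 5 lay among them. In each group the highest heart was the one with the highest lung and foregut sum given above (wild type replicate 5, mutant replicate 5). This match was named after the values were seen. Wild type replicate 2 had more Efna3 than replicate 3 but a lower sum of these markers (0.941 against 3.13 CPM). Mutant replicate 1 was above mutant replicate 10 in both. The part of these markers in the Efna3 values was not tested. The log2 fold change was -0.97 ± 0.42 (SE, edgeR adjusted p = 0.867, and 0.220 to 1 over the other settings). The antisense transcript Gm15998 covers 14.1% of the exon bases of Efna3, and the strand setting of the counting is not given in the sources used here, so reads there are uncertain. Efna1, Efna3 and Efna4 stand next to each other on chromosome 3 (gaps of 32.8 and 10.4 kb). Their log2 fold changes were 0.06, -0.97 and -0.13, so the neighbours of Efna3 did not share its size.

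**Figure D3:**
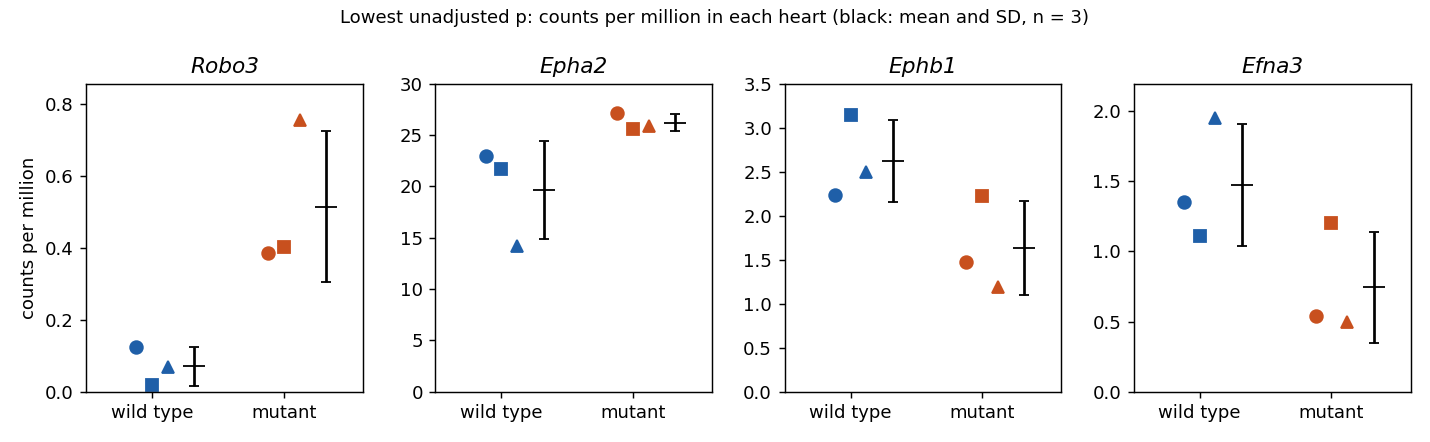
Counts scaled by library size (CPM, y axis, starting at 0) of the 4 guidance genes with an unadjusted p under 0.05 in each heart, with the mean and SD of 3 hearts in black. Symbols stand for replicates (wild type 2 circle, 3 square, 5 triangle, mutant 1 circle, 5 square, 10 triangle). Robo3 and Epha2 separate upward, Ephb1 separates downward by a narrow margin and Efna3 overlaps.

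Upstream sequence of these genes was read from the RefSeq promoters of GRCm38.p6 because the deleted gene encodes a DNA-binding protein. The letters searched, on both strands, were GCGTGGG, the core of a site shared by WT1 and EGR1. They were chosen after the expression values were known. Of 32851 promoters of 250 bases before the start, 1414 (4.30%) held them. Of the 37 such promoters of the 32 guidance genes that matched the table, 3 (8.11%) did, those of Efna3, Epha2 and Ephb2. In all 3 the match is on the strand opposite to the gene, so it reads CCCACGC below, in capitals. The Robo3 promoter, shown since Robo3 had the smallest p, holds none. Each sequence runs 5′ to 3′ on the strand of the gene and leaves out bases that GENCODE places in the gene.
Efna3, chr3:89322966-89323189, minus strand: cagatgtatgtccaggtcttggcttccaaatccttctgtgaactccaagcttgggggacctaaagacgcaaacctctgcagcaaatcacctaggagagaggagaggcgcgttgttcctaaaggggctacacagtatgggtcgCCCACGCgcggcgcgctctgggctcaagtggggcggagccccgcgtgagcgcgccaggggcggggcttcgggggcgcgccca
Epha2, chr4:141300971-141301220, plus strand: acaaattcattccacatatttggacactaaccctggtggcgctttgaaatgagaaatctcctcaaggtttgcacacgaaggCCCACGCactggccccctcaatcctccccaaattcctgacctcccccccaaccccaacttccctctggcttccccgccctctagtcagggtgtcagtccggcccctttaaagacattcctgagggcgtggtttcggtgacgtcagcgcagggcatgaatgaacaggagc
Ephb2, chr4:136836013-136836262, minus strand: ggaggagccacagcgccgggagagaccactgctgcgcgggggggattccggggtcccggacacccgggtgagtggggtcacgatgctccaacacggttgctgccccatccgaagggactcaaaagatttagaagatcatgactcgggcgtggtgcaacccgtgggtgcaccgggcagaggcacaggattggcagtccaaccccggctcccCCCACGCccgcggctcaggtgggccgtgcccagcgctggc
Robo3, chr9:37433247-37433425, minus strand: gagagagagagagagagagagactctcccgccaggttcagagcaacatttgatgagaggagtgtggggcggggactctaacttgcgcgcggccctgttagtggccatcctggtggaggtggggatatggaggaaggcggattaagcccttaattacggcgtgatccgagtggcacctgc
The match ends 101, 162 and 33 bases before the RefSeq start of these promoters of Efna3, Epha2 and Ephb2. Another RefSeq promoter of Efna3 (chr3:89321769-89322018) holds no match. Of the genes with a match, Efna3 and Ephb2 had lower and Epha2 higher estimates in the mutant. A match of these letters is a description of the sequence and not a binding site, and their absence from a window says nothing about the factor.

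Of the ephrin ligands with the highest levels, Efnb3 and Efna1 overlapped between the groups and Efnb1 did not. Efnb3 lay at 230.4, 172 and 161 CPM in wild type replicates 2, 3 and 5 and at 188, 194 and 208 CPM in mutant replicates 1, 5 and 10 (log2 fold change 0.06 ± 0.15, SE). The wild type hearts spanned the mutant ones. Efna1 lay at 31.4, 29.1 and 42.9 CPM for wild type and 33.8, 34.2 and 39.7 CPM in mutant hearts (0.06 ± 0.16). Efnb1, the X-linked ephrin-B gene, lay at 94.2, 75.3 and 75.9 CPM in wild type and at 67.5, 68.9 and 70.1 CPM in mutant hearts. Every mutant heart was lower, the 3 mutant hearts were within a narrow range, and wild type replicate 2 was the highest heart (log2 fold change -0.25 ± 0.11, SE, edgeR adjusted p = 0.904). With each heart left out, the estimate stayed between -0.30 and -0.13, the latter without wild type replicate 2.

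Of the Eph receptors with the highest levels, Ephb4 lay at 195, 183 and 145 CPM in wild type and at 161, 186 and 195 CPM in mutant hearts (log2 fold change 0.05 ± 0.14, SE). The groups overlapped fully. The other markers of venous endothelium summed to 96.3 to 104 CPM for wild type and 70.1 to 99.3 CPM in mutant hearts. Of these 3 markers, 0 were higher and none was at 0 in a heart. Their log2 fold changes were -0.35 for Nr2f2, -0.39 for Aplnr and -0.03 for Nrp2, so Nrp2 was near 0. Efnb2 lay between 68.9 and 101 CPM in wild type and between 93.0 and 96.8 CPM in mutant hearts. Epha7 lay at 81.3, 86.2 and 55.4 CPM in wild type and at 86.8, 82.9 and 58.8 CPM in mutant hearts, with 1 low heart in each group (0.03 ± 0.20).

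Slit2, a secreted ligand of Robo1 and Robo2, lay at 157, 149 and 86.0 CPM in wild type and at 167, 183 and 144 CPM in mutant hearts (log2 fold change 0.33 ± 0.22, SE). Wild type replicate 5 was the lowest heart, and without it the estimate was 0.11. Slit3 was at 62.6 CPM in wild type replicate 2, against 23.6 to 40.5 CPM in the other 5 hearts. Robo1 lay at 59.0, 71.9 and 41.8 CPM in wild type and at 69.4, 69.1 and 59.0 CPM in mutant hearts (0.19 ± 0.19), again with wild type replicate 5 lowest.

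Both netrin genes tested had higher means in the mutant without passing the test. Ntn1 lay at 264, 234 and 203 CPM in wild type and at 270.2, 387 and 240.2 CPM in mutant hearts, so that mutant replicate 5 was far above the rest (log2 fold change 0.36 ± 0.19, SE, edgeR adjusted p = 0.939). Without that heart the estimate was 0.12. Ntn4 lay at 12.6, 13.6 and 10.4 CPM in wild type and at 11.99, 15.8 and 18.8 CPM in mutant hearts (0.35 ± 0.18, SE, edgeR adjusted p = 0.939), with mutant replicate 1 among the wild type hearts. The 4 Unc5 receptors had estimates between -0.04 and -0.55, and none passed the test. The direction was not stable, since Unc5c was at 0.22 without mutant replicate 10 and Unc5b at 0.064 without wild type replicate 2. Unc5b lay at 232, 213 and 164 CPM in wild type and at 204, 195 and 191 CPM in mutant hearts. Unc5d, a receptor that also binds FLRT proteins, had 56, 69 and 32 counts in wild type and 35, 22 and 46 counts in mutant hearts (-0.55 ± 0.38). Summed arterial markers other than Unc5b were 265 to 365 CPM for wild type and 359 to 384 CPM in mutant hearts. Of these 5 markers, 3 were higher and none was at 0 in a heart. Gja5 carried most of this sum, at 276, 193 and 250 CPM in wild type and 284, 298 and 297 CPM in mutant hearts. Sox17 and Hey1 were lower in the mutant (log2 fold changes of -0.52 and -0.45).

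Single hearts stood apart for many of these genes. Wild type replicate 5 held the lowest value of 15 of the 31 genes (48.4%), among them Slit2, Slit3, Robo1, Ntn1, Ntn4, Efnb2, Efnb3, Ephb3, Ephb4 and Unc5b. The share over all genes tested was 31.1%. The median deviation of the guidance genes in that heart was -0.26 on the log2 scale, against 0.01 for all genes. Guidance genes tested had a median length of 3183 bases against 1821 bases for all genes, and this heart is the one whose values decline with gene length. With each heart's trend with gene length corrected, the estimate of Slit2 went from 0.33 to 0.32 and that of Epha2 from 0.42 to 0.43. Others of these genes moved more, Ntn1 from 0.36 to 0.30, Robo1 from 0.19 to 0.14 and Unc5b from -0.04 to -0.10. The part of gene length in the low values of this heart was not tested. Wild type replicate 2 held the highest value of 9 genes (29.0%, against 17.9% of all genes) and the lowest of 0.

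**Figure D4:**
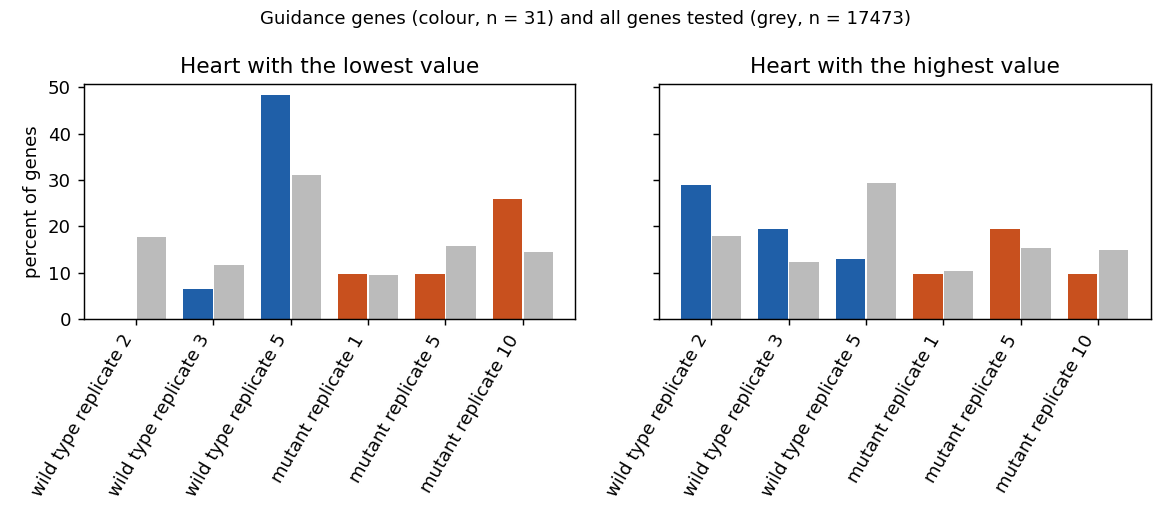
Percent of genes (y axis, starting at 0) whose lowest value (left) or highest value (right) was in each heart, for the 31 guidance genes (blue for wild type and orange for mutant hearts) and for all 17473 genes tested (grey). Wild type replicate 5 holds the lowest value of 48.4% of the guidance genes and mutant replicate 10 that of 25.8%.

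Mutant replicate 10 held the lowest value of 8 genes (25.8%, against 14.5% of all genes). These were Efna3, Efna4, Epha3, Epha4, Epha5, Ephb1, Robo2 and Unc5c. Unc5c, a netrin receptor, lay at 12.3 CPM in this heart and at 22.8 to 33.0 CPM in the other 5. Robo2 lay at 8.29 CPM there and at 11.6 to 22.4 CPM elsewhere. Epha3, a receptor known from cushion mesenchyme, lay at 20.2 CPM in this heart against 26.3 to 33.0 CPM. These 3 genes were chosen after their values were seen. They show 1 mutant heart apart from the other 2, which lay within or above the wild type range for Unc5c and Epha3. Of the 7 fibroblast and mesenchyme markers, 3 were lowest in mutant replicate 10 too. Lum lay at 63.1 CPM there against 89.8 to 126 CPM elsewhere, Pdgfra at 64.6 against 82.1 to 150.0 CPM and Postn at 311 against 382 to 531 CPM. These markers too were named after their values were seen, and the others of the list were not lowest there. The sum of the list, carried by collagens, was 3917 CPM, between mutant replicates 1 (3151 CPM) and 5 (4454 CPM). It was above every wild type heart (2197 to 3135 CPM). Summed epicardial markers were highest in mutant replicate 10, at 671 CPM against 324 to 599.7 CPM, with 219 CPM from Upk3b alone. Not every marker was highest there, since Wt1, Aldh1a2 and Tbx18 were higher in wild type replicate 2. No marker of these lists was at 0 in a heart, and their part in the low values was not tested.

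**Figure D5:**
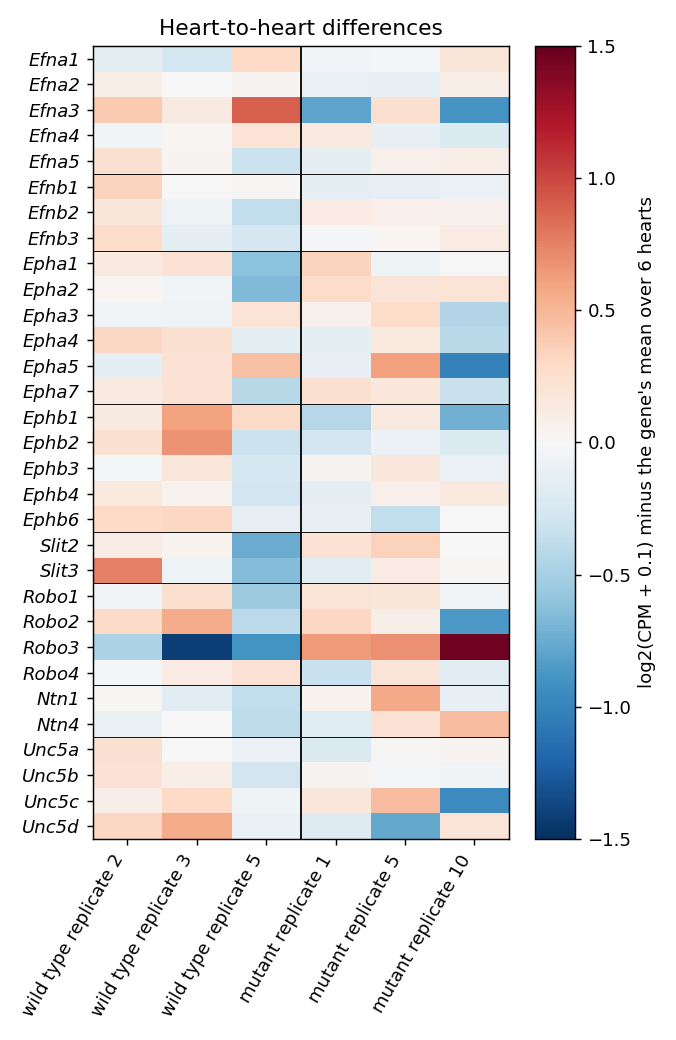
Log2(CPM + 0.1) of each of the 31 guidance genes (rows, grouped by class) in each heart (columns) minus the mean of the gene over the 6 hearts, in red where higher and blue where lower. Robo3 is blue in the wild type and red in the mutant hearts, wild type replicate 5 is blue for Slit2, Slit3 and Robo1 among others and mutant replicate 10 is blue for Epha5, Robo2 and Unc5c.

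Because 1 wild type heart held so many of the lowest values, the comparison was repeated without it. Leaving out the wild type heart with the lowest values raises the wild type means, so a move toward lower estimates in the mutant follows from this choice and is no result. Without wild type replicate 5, 9 guidance genes were higher and 22 lower in the mutant. Among the 17473 genes of the main fit, 8903 were higher without this heart, against 8699 with it. In edgeR without this heart, 7 of 31 guidance genes had an unadjusted p under 0.05, beside 2179 of 17814 genes in all (12.2%). Those 7 were Efna1, Efnb1, Epha2, Epha4, Ephb2, Ephb6 and Robo3. No guidance gene passed the adjusted threshold in edgeR, while DESeq2 without that heart gave 1, Ephb2, beside 2.52% of all genes. Ephb2, a receptor of ephrin-B ligands that was named after its values were seen, lay at 22.4, 30.7 and 15.2 CPM in wild type replicates 2, 3 and 5 and at 15.6, 18.0 and 16.6 CPM in mutant replicates 1, 5 and 10. Wild type replicate 5 was the lowest of all hearts, and the other wild type hearts were above every mutant heart, so its call without that heart rests on the choice of heart. With all hearts the log2 fold change of Ephb2 was -0.44 ± 0.23 (SE, edgeR adjusted p = 0.928), and without wild type replicate 5 it was -0.66 (edgeR adjusted p = 0.128) or -0.67 (DESeq2 adjusted p = 0.00367).

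Other genes of these pathways that are not in the families above, 67 by name, were examined in the same fit. The names cover other netrin receptors, RGM and FLRT proteins, Slit binders, Robo and Eph effectors, ephrin-B partners and proteases. Of the 64 found in the table, all passed the filter, 39 were higher and 25 lower in the mutant (49.8% of all genes tested were higher), and the median log2 fold change was 0.04. None passed the adjusted threshold in edgeR, and 4 (6.25%, beside 5.73% of all genes) had an unadjusted p under 0.05, 1 higher and 3 lower. The groups did not overlap for 9 of them (14.1%, beside 11.2% of all genes). DESeq2 gave 1 of them an adjusted p under 0.05, beside 0.677% of all genes. These shares of unadjusted and non-overlapping genes were near those of all genes.

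The gene that DESeq2 called was Ntng2, which encodes netrin-G2, a lipid-anchored relative of the netrins that does not bind Dcc or Unc5 receptors. Wild type replicates 2, 3 and 5 held 84, 77 and 46 counts of Ntng2, and mutant replicates 1, 5 and 10 held 9, 11 and 16. Every mutant heart was below every wild type heart. The log2 fold change of Ntng2 was -2.46 ± 0.37 (SE, edgeR adjusted p = 0.133, DESeq2 adjusted p = 4.79e-05). Over all other settings its adjusted p was between 4.79e-05 and 0.681, so its call depended on the tool and, within edgeR, on the filter. The gene 6530402F18Rik on the same strand covers 14.0% of the exon bases of Ntng2, so reads there are uncertain.

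Dscaml1, a cell adhesion molecule related to the netrin receptor DSCAM, had 25, 41 and 17 counts in wild type and 7, 10 and 11 counts in mutant hearts, with no overlap (Dscaml1 log2 fold change -1.499 ± 0.44, SE, edgeR adjusted p = 0.646). Nell2, a secreted ligand of Robo3, had 97, 404 and 212 counts in wild type and 80, 135 and 52 counts in mutant hearts (Nell2 log2 fold change -1.40 ± 0.52, SE, edgeR adjusted p = 0.793). The wild type hearts were spread widely, and replicate 2 lay within the mutant range. Kalrn, an effector of EphB receptors, lay at 52.3, 50.9 and 44.1 CPM in wild type and at 56.4, 60.4 and 60.3 CPM in mutant hearts (Kalrn log2 fold change 0.27 ± 0.10, SE, edgeR adjusted p = 0.828). All mutant hearts were above the wild type hearts by a small margin.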

How the data were processed

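RNA of 6 whole hearts, 3 per genotype, was measured. The study's methods give read trimming, STAR alignment to mm10 and featureCounts for the counting, while the submitters' processing notes name HTSeq. The authors deposited raw counts and FPKM values (count per length and total count). Each was deposited in a pair of identical tables, and a table of group means was not used. The strand setting is not given in the sources used here. Fold changes and p-values come from edgeR 4.0.16 in R 4.3.3 (TMM, filterByExpr at minimums of 10 per heart and 15 in all, quasi-likelihood test, two-sided, Benjamini-Hochberg over 17473 genes, threshold 0.05). The SE is the size of the log2 fold change divided by the square root of F. No covariate was used. DESeq2 1.42.0, limma 3.58.1, other filters and factors, pseudocounts of 1 and 0.1 on the FPKM scale, a gene length correction (loess span 0.5) and each heart left out were alternatives. DESeq2 with hearts left out and the fit without both replicate 5 hearts were added after seeing the data. Levels between genes are FPKM. The scripts were tested on simulated data. Positions come from GENCODE M21 (GRCm38).

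The members and lists were chosen with earlier results of these data known. Named with values in every heart are members with an adjusted or unadjusted p under 0.05, members whose groups do not overlap, the highest and the lowest-p member of each class, and pathway genes with an unadjusted p under 0.05. Others were chosen after their values were seen. With 1 heart per library, p-values weigh the genotype difference against the spread between 3 hearts per group, estimated partly across all genes.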

Additional observations from a re-analysis of the deposited data

How the results depend on the processing

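Over 24 other settings, the guidance genes with an adjusted p under 0.05 numbered 0 in all but DESeq2 without wild type replicate 5, which gave 1 (Ephb2). Their median log2 fold change, -0.04 with all hearts, moved by less than 0.19 in all 24. That limit is the larger SD, within a genotype, of the hearts' median deviations, and it is wide beside the median itself. The directions did move, since 8 guidance genes were higher and 23 lower without both replicate 5 hearts, against 14 and 17 with all hearts. Among the 17473 genes of the main fit, 8605 were higher without these hearts, against 8699 with all hearts. The guidance genes' median deviation was -0.26 in wild type replicate 5 and 0.12 in mutant replicate 5. A move toward lower estimates without both therefore follows from this choice and is no result. The number with an unadjusted p under 0.05, 4 with all hearts, was 2 to 7 with a heart left out in edgeR (2 without mutant replicate 1 or 10, 7 without wild type replicate 5, beside 3.44% to 12.2% of all genes), 2 to 9 in DESeq2 (beside 2.61% to 8.58%) and 9 without both replicate 5 hearts (beside 13.48% of all genes). Among all genes, 0 passed in edgeR, 132 in DESeq2, 34 with no filter, 13 with gene length corrected and 9 without both replicate 5 hearts. With a heart left out this was 0 to 44 in edgeR. In DESeq2 it was 95, 107 and 447 without wild type replicates 2, 3 and 5, and 138, 71 and 71 without mutant replicates 1, 5 and 10.

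Estimates near 0 turned direction, and the cause was not tested. With hearts left out in edgeR, Efna1 lay between -0.046 and 0.27, Efnb3 between -0.035 and 0.24, Epha7 between -0.21 and 0.19, Ephb4 between -0.096 and 0.14, Robo1 between -0.036 and 0.39 and Unc5b between -0.18 and 0.064, where the fit without both replicate 5 hearts is included. In DESeq2, Efna1 was -0.0046, -0.048 and -0.018 without wild type replicates 2 or 3 or mutant replicate 10. There, Efnb3 was -0.039 without wild type replicate 5, and Unc5b was 0.059 without replicate 2. Epha7 was -0.14, -0.067 and -0.038 without wild type replicate 5 or mutant replicates 1 or 5, and Ephb4 was -0.069 and -0.0074 without wild type replicate 5 or mutant replicate 10. Ntng2 passed in DESeq2 with any heart left out and in edgeR with no filter, and Nell2 in DESeq2 without wild type replicate 2 (adjusted p = 0.00345). No paired analysis was possible because the groups share only replicate number 5. Genes under 10 counts per heart, such as Robo3 in the wild type, are limited by depth.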
